A study of Mus musculus with 12 samples.

Results

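The integrated stress response and amino acid genes are 34 mouse genes that the literature links to the transcription factor ATF4, taken as a list of symbols that was drawn up with earlier results of these data known. All 34 were found in both deposited count tables, which together hold 17335 genes, 16386 in the PSC4 table and 15309 in the KPC4 table. They comprise 6 transcription factors and co-regulators, 3 kinases or substrates of the eIF2 step, 8 feedback and effector genes, 9 genes of amino acid and one-carbon synthesis, 7 amino acid transporter genes and the tRNA exporter gene Xpot. In the integrated stress response, kinases that sense amino acid shortage, endoplasmic reticulum stress and other insults phosphorylate the translation factor eIF2, which slows bulk protein synthesis while the Atf4 message is translated more. ATF4, often paired with C/EBP proteins, then raises transcription of genes that make, import and load amino acids onto tRNA, together with genes such as Ppp1r15a that restore eIF2. When the stress lasts, ATF4 also acts with Ddit3 (CHOP), a factor known for its part in cell death. The values here are RNA levels, and neither eIF2 phosphorylation nor ATF4 protein was analysed.

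The cells were cultures of 2 mouse lines, PSC4 (pancreatic stellate cells, the matrix-producing stromal cells of the pancreas) and KPC4 (pancreatic adenocarcinoma cells), each represented by a single line. Gemcitabine, a nucleoside analogue used against pancreatic cancer, was given only to donor KPC4 cells, at 10 µM for 6 h, and those cells were washed before they conditioned starvation medium for 14 h. PSC4 cells received for 24 h the medium of KPC4 cells that had received vehicle (Control-SU) or the drug (Gem-SU). For the second step PSC4 cells were held in either medium for 6 h, washed and left for 18 h in fresh starvation medium, and the resulting Control-PSC-SU or Gem-PSC-SU was given to KPC4 cells for 24 h. All 4 groups therefore received conditioned starvation medium, and each had 3 libraries that the labels call biological replicates. The labels do not say whether replicates differed in the donor culture, the recipient culture or both, so p-values measure the spread between these libraries.

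The libraries held 29559414 to 38138356 counts in PSC4 and 26354328 to 34744150 in KPC4. The most alike pair of replicates had a chi-square of 30.4 per degree of freedom, far from counting noise, so each library was kept as a sample. The epithelial markers differed between the lines in the direction of the labels. The list of 10 summed to between 6024 and 7526 CPM in KPC4 and to between 15.9 and 22.3 CPM in PSC4. CPM is the count per library scaled to one common total, after TMM adjustment. Epcam, Cdh1 and Cldn4 were not among the genes of the PSC4 table, and Pdgfrb, Dcn, Des and Thy1 not among those of the KPC4 table. Macrophage and endothelial markers each summed to at most 5.72 CPM in any library. The stellate list, of which 11 of 12 genes were in the PSC4 table, summed to between 8139 and 8705 CPM with Control-SU and to between 2457 and 3671 CPM with Gem-SU. Its sum in KPC4 was between 1848 and 2806 CPM, nearly all of it Vim, so the sum did not separate the lines. Vim was at 1831 to 2773 CPM in KPC4 and at 525 to 2038 CPM in PSC4. Col1a1, Col1a2, Col3a1, Pdgfra and Acta2 were lower in every KPC4 library than in any PSC4 library, and Fap overlapped. The stellate list moved with every PSC4 result below, and its part in them was not tested. In bulk RNA, a change in the share of cells that express a gene and a change in RNA per cell cannot be told apart.

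PSC4 cells in the medium of gemcitabine-treated tumour cells had higher RNA of most of the 34 genes. By edgeR (quasi-likelihood test, Benjamini-Hochberg adjusted), 28 members had an adjusted p under 0.05, against a background of 46.3% of all genes tested. Of these, 24 were higher with Gem-SU (background 24.3%) and 4 lower (background 22.0%). Of the higher ones 17 rose at least 2-fold (background 13.5%), and of the lower ones 3 fell at least 2-fold (background 11.7%). The median log2 fold change of the members was 1.00, against -0.0032 over the 13347 genes tested. The 3 Gem-SU libraries all lay above the 3 Control-SU libraries for 27 members (background 29.3%) and all below for Slc38a2, Nupr1 and Vldlr (3 members, background 27.1%). By role, the calls were 3 higher and 2 lower of 6 transcription factors, 2 of 3 eIF2 genes higher, 6 higher and 1 lower of 8 feedback and effector genes, 7 of 9 synthesis genes higher, and 5 higher and 1 lower of 7 transporters. The authors' deposited table called 27 members in PSC4, 24 higher and 3 lower, where it called 42.9% of its genes.

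**Figure D1:**
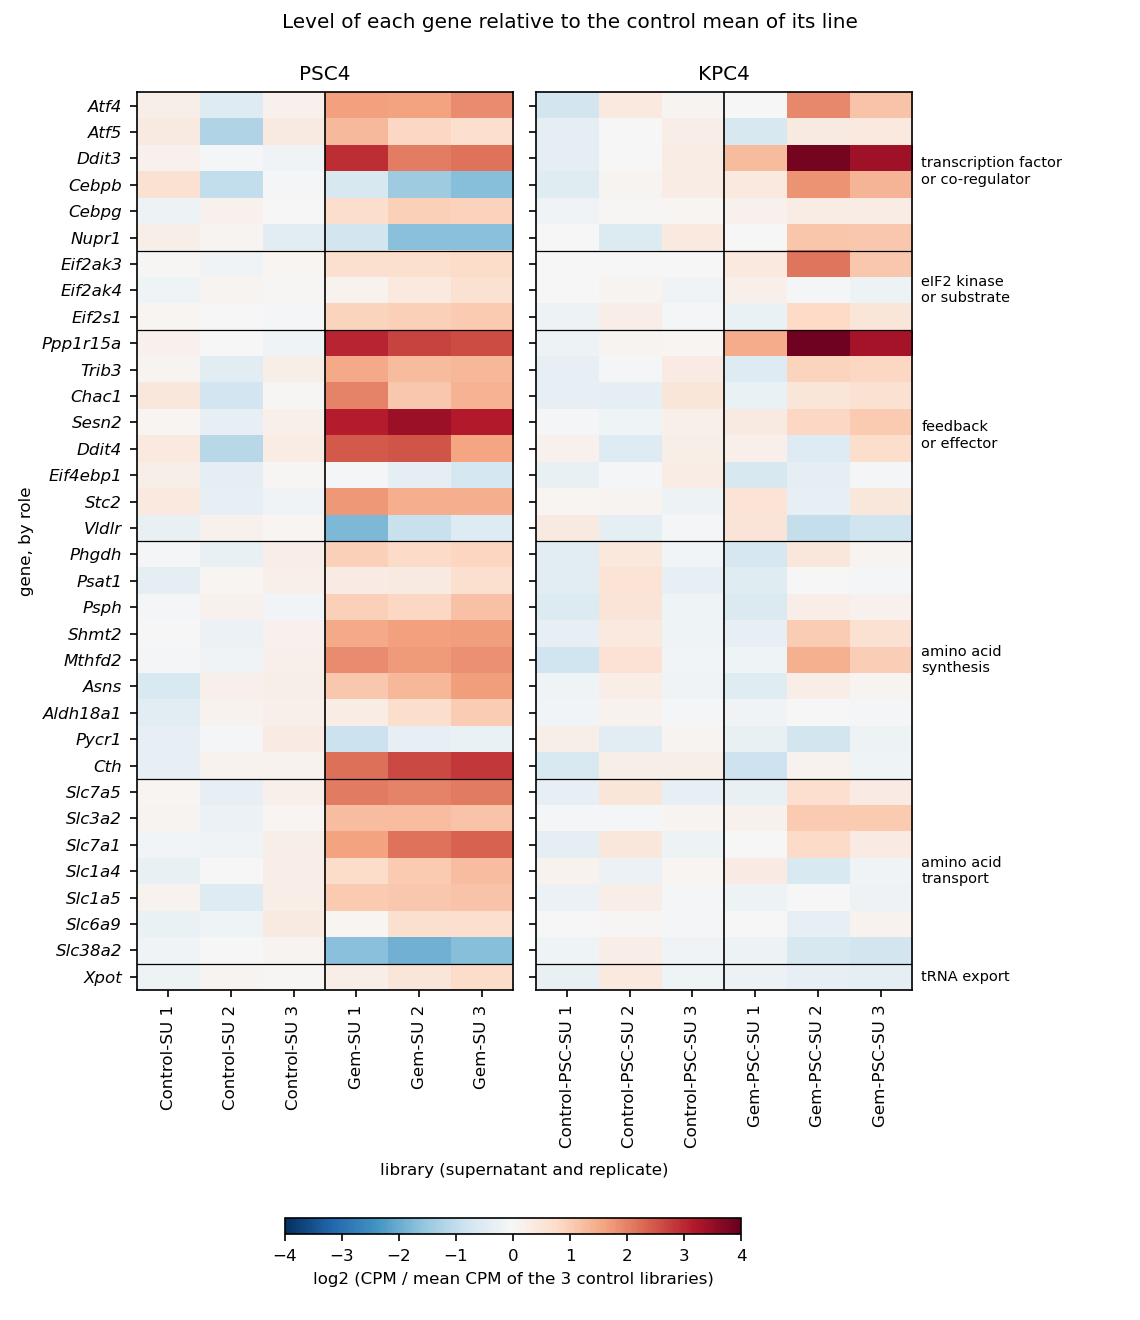
Each row is a gene, grouped by role, and each column a library; colour gives the log2 of CPM over the mean CPM of the 3 control libraries of the same line. The PSC4 Gem-SU libraries are coloured as higher in most rows, with Slc38a2, Nupr1, Vldlr, Cebpb, Pycr1 and Eif4ebp1 the other way, while in KPC4 the strong colours sit in a few rows and mostly in Gem-PSC-SU replicates 2 and 3.

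Promoters are shown for the members that rose at least 2-fold in PSC4 and hold a match to an ATF4-type motif, because these genes moved together. The window runs from 250 bases before to 50 bases after the start of the gene in RefSeq, on GRCm38.p6, and 30 of the 34 members matched an entry, with 37 promoters in all. Cth, Eif4ebp1, Slc1a5 and Slc7a5 had no entry. The motifs searched on both strands were TGATGNAA, the core of the element bound by C/EBP and ATF proteins together, and TGACGTCA, the ATF/CRE palindrome; they differ at the fourth base, so no stretch matched both. TGATGNAA was present in 7 of 37 member promoters (18.9%) and in 3.97% of the 32851 promoters of the same length, and TGACGTCA in 1 of 37 (2.7%) and in 1.79%. The members were listed because the literature links them to ATF4, so these shares are not independent of that choice. Capitals mark the match on the strand of the gene.
Ppp1r15a (chr7:45526219-45526518, minus strand): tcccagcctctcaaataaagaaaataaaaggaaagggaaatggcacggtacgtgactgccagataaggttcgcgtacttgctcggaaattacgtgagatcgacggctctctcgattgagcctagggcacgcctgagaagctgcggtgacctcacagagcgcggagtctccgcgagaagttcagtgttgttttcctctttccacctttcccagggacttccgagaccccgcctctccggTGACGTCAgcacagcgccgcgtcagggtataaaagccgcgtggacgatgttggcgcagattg
Trib3 (chr2:152344011-152344310, minus strand): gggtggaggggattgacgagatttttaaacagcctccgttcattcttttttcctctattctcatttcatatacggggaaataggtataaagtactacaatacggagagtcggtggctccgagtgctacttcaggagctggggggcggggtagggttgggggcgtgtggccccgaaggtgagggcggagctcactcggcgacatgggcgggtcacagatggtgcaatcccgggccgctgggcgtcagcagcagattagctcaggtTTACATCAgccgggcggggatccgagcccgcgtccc
Asns (chr6:7693160-7693459, minus strand): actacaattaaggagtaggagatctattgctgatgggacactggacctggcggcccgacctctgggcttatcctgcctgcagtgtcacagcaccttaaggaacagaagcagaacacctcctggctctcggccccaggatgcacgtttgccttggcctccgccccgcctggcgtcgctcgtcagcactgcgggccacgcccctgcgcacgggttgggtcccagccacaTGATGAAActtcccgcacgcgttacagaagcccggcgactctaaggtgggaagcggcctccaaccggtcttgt
Slc1a4 (chr11:20332664-20332963, minus strand): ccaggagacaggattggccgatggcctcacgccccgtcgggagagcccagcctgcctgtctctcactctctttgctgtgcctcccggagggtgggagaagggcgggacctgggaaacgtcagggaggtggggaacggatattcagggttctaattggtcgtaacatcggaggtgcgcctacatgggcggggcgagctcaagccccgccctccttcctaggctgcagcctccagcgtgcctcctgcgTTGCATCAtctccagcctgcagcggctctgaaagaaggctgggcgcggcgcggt
Chac1 (chr2:119350992-119351291, plus strand): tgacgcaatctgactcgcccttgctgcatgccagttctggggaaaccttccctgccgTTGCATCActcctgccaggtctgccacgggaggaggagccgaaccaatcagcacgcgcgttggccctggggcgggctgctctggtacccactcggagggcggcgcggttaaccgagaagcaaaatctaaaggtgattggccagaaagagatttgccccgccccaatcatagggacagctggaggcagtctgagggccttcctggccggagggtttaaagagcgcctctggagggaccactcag
The palindrome stands in the Ppp1r15a window and the composite core in the other 4. Nupr1, Pycr1 and Vldlr also hold the composite core, and none of these rose in PSC4. Sesn2, the member with the largest rise, holds neither string in its window. Neither do Atf4, Ddit3, Ddit4, Stc2, Shmt2, Mthfd2, Slc7a1 and Slc3a2, which also rose at least 2-fold. A match is a string of letters here, and binding was not measured.

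Among the transcription factors, Atf4 itself stood at 237, 139.9 and 229 CPM in Control-SU replicates 1, 2 and 3 and at 625, 614 and 745 CPM in Gem-SU replicates 1, 2 and 3. Every Gem-SU library lay above every control, and Atf4 RNA rose 3.28-fold (log2 fold change 1.71, standard error 0.23; edgeR quasi-likelihood, adjusted p = 0.000623). Ddit3, which encodes CHOP, went from 26.0, 22.3 and 21.0 CPM in the controls to 179, 95.4 and 104 CPM with Gem-SU. Its groups were far apart, with Gem-SU replicate 1 the highest, and the rise was 5.46-fold (log2 2.45 ± 0.25 SE; edgeR adjusted p = 0.000216). The Ddit3 locus carries another, overlapping gene identifier in the annotation, which is in neither count table. Reads of Ddit3 may have been split or dropped before deposit, which was not tested. Cebpg, a partner of ATF4 in heterodimers, rose by 0.86 on the log2 scale (edgeR adjusted p = 0.00231). Atf5, whose message is translated under stress in the manner of Atf4, averaged 76.4 ± 37.6 CPM in controls and 149 ± 35.1 CPM with Gem-SU (SD, n = 3 each), with an edgeR adjusted p of 0.0658; the authors' deposited table lists it at an adjusted p of 0.0449.

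The other members of this class went the opposite way in PSC4. Nupr1, a small chromatin-associated stress protein, was at 63.8, 58.6 and 39.5 CPM in the controls and at 32.2, 16.8 and 17.0 CPM with Gem-SU. The highest Gem-SU library stayed below the lowest control, and Nupr1 fell 2.45-fold (log2 -1.29 ± 0.30 SE; edgeR adjusted p = 0.00762). Cebpb, a C/EBP factor known from inflammation and from ATF4 complexes, was at 159, 52.5 and 98.6 CPM in the controls and at 66.6, 38.6 and 31.5 CPM with Gem-SU. Control-SU replicate 2 lay below Gem-SU replicate 1, so the groups overlapped. The fall of Cebpb was -1.18 on the log2 scale (edgeR adjusted p = 0.0405). The call was lost without Control-SU replicate 1 (log2 fold change -0.73, adjusted p = 0.14), Control-SU replicate 3 (-1.26, 0.0729), Gem-SU replicate 2 (-1.07, 0.132) or Gem-SU replicate 3 (-0.97, 0.111), and Cebpb stayed lower with Gem-SU in each of these fits.

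Of the eIF2 step, Eif2s1, the eIF2 subunit that is phosphorylated, rose by 0.97 on the log2 scale (edgeR adjusted p = 0.000577), from 73.4 ± 3.15 to 144 ± 7.65 CPM (SD, n = 3 each). Eif2ak3, which encodes the endoplasmic reticulum kinase PERK, rose by 0.67 (edgeR adjusted p = 0.00413), a call that was lost in the fit over all 12 libraries (log2 fold change 0.63, adjusted p = 0.119). Eif2ak4, which encodes the amino acid sensor GCN2, had a log2 fold change of 0.38 that did not pass (edgeR adjusted p = 0.084), although its Gem-SU libraries all lay above the controls.

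The feedback and effector genes held the largest rises. Sesn2, a leucine-sensing inhibitor of mTORC1, stood at 34.5, 26.2 and 37.3 CPM in the controls and at 288, 348 and 294 CPM with Gem-SU. The libraries of a group were close and the groups far apart, with a 9.49-fold rise (log2 3.25 ± 0.19 SE; edgeR adjusted p = 2.21e-05). Ppp1r15a encodes GADD34, which brings the phosphatase to eIF2 and ends the response. It went from 33.6, 29.7 and 26.5 CPM to 248, 195 and 184 CPM, again without overlap, a 6.99-fold rise (log2 2.81 ± 0.18 SE; edgeR adjusted p = 3.24e-05). Ddit4, another mTORC1 inhibitor (REDD1), was at 42.5, 15.0 and 40.4 CPM in the controls and at 179.9, 187 and 98.0 CPM with Gem-SU. Control-SU replicate 2 was the lowest and Gem-SU replicate 3 the lowest of its group, yet the groups did not overlap, and the log2 fold change was 2.25 ± 0.40 SE (edgeR adjusted p = 0.00245).

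Trib3, a pseudokinase that binds ATF4 and CHOP and restrains them, was at 13.4, 9.25 and 14.4 CPM in the controls and at 35.0, 29.4 and 30.7 CPM with Gem-SU. All Gem-SU libraries were above all controls, by 1.36 on the log2 scale (edgeR adjusted p = 0.00115). Chac1, which degrades glutathione, was at 16.8, 7.20 and 12.8 CPM and then at 48.1, 25.8 and 32.0 CPM. Its groups were apart, with replicate 1 the highest and replicate 2 the lowest in both, and it rose by 1.52 (edgeR adjusted p = 0.00675). Stc2, a secreted glycoprotein of stressed cells, went from 9.86, 5.94 and 6.79 CPM to 24.9, 20.4 and 20.4 CPM without overlap, a rise of 1.54 (edgeR adjusted p = 0.00114). Vldlr, a lipoprotein receptor, went down from 73.1, 101 and 94.5 CPM to 25.9, 48.7 and 62.5 CPM. The groups were apart, but with a log2 fold change of -0.97 (edgeR adjusted p = 0.0256) the call was lost without Control-SU replicate 2 (adjusted p = 0.0708), Control-SU replicate 3 (0.0714) or Gem-SU replicate 2 (0.0694). Eif4ebp1, the 4E-BP1 repressor of translation, had a log2 fold change of -0.36 (edgeR adjusted p = 0.191).

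Of the 9 synthesis genes 7 rose, among them genes of the serine, one-carbon, asparagine and cysteine routes, and Psat1 and Pycr1 did not pass. Cth, which makes cysteine from cystathionine, was at 10.9, 15.1 and 14.9 CPM in the controls and at 62.8, 84.8 and 97.1 CPM with Gem-SU. No library of one group came near the other, and the rise was 6.00-fold (log2 2.58 ± 0.22 SE; edgeR adjusted p = 9.27e-05). Mthfd2, the mitochondrial folate enzyme downstream of serine, went from 58.8, 56.1 and 70.6 CPM to 227, 202 and 222 CPM, a rise of 1.81 on the log2 scale (edgeR adjusted p = 8.41e-05). Shmt2, which splits serine into glycine and a one-carbon unit in mitochondria, went from 108, 91.1 and 119 CPM to 303, 331 and 335 CPM, a rise of 1.61 (edgeR adjusted p = 0.000161). In both genes the 3 Gem-SU libraries were close together and well above the controls. Asns, asparagine synthetase, was at 62.0, 108 and 110.2 CPM in the controls and at 197, 236 and 298 CPM with Gem-SU. Control-SU replicate 1 was the lowest and Gem-SU replicate 3 the highest, with no overlap and a rise of 1.38 (edgeR adjusted p = 0.00271).

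The 3 enzymes that make serine had log2 fold changes under 1.00. Psph, the last of them, rose by 0.99 (edgeR adjusted p = 0.00158), and Phgdh, the first, by 0.85 (edgeR adjusted p = 0.00469). Psat1, between them, had a log2 fold change of 0.46 that did not pass (edgeR adjusted p = 0.0769). Of the proline pair, Aldh18a1, the entry enzyme, rose by 0.71 (edgeR adjusted p = 0.0344), while Pycr1, which finishes proline, averaged 34.6 ± 7.84 CPM in controls and 25.2 ± 5.40 CPM with Gem-SU (SD, n = 3 each; edgeR adjusted p = 0.132). The Aldh18a1 call was lost without Gem-SU replicate 2 or 3 or any of Control-SU replicates 1, 2 and 3, at adjusted p between 0.0626 and 0.112. The same 5 libraries each decided the call of the tRNA exporter Xpot, which rose by 0.51 (edgeR adjusted p = 0.0401) and had adjusted p between 0.0619 and 0.139 without them.

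Among the transporters, the cationic amino acid carrier Slc7a1 was at 104, 103 and 132 CPM in the controls and at 347, 507 and 583 CPM with Gem-SU. Even its lowest Gem-SU library, replicate 1, was far above the controls, and the rise was 4.25-fold (log2 2.09 ± 0.22 SE; edgeR adjusted p = 0.000258). Slc7a5 and Slc3a2 encode the light and heavy chains of LAT1, the exchanger for large neutral amino acids such as leucine. Slc7a5 went from 111, 85.0 and 122 CPM to 445, 416 and 449 CPM, a 4.11-fold rise (log2 2.04; edgeR adjusted p = 0.000104). Slc3a2 went from 136, 107 and 131 CPM to 292, 289.9 and 275 CPM, a 2.30-fold rise (log2 1.20; edgeR adjusted p = 0.000486). The Gem-SU libraries of both chains were close together and did not overlap the controls.

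The neutral amino acid exchangers rose as well. Slc1a5, the ASCT2 carrier of glutamine, was at 71.1, 45.0 and 76.4 CPM in the controls and at 132, 136 and 141 CPM with Gem-SU, a rise of 1.09 (edgeR adjusted p = 0.0028). Slc1a4, the related ASCT1 carrier of serine and alanine, went from 26.8, 32.5 and 39.4 CPM to 55.1, 68.3 and 77.2 CPM, a rise of 1.02 (edgeR adjusted p = 0.00327). Neither had overlapping groups. Slc6a9, the glycine transporter GLYT1, had a log2 fold change of 0.48 that did not pass (edgeR adjusted p = 0.106). Slc38a2, the sodium-coupled carrier SNAT2 that is itself known as an amino acid starvation gene, went the other way. It was at 1274, 1422 and 1530.3 CPM in the controls and at 438, 375 and 434 CPM with Gem-SU. All Gem-SU libraries lay far below all controls, a 3.39-fold fall (log2 -1.76 ± 0.17 SE; edgeR adjusted p = 0.000168).

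**Figure D2:**
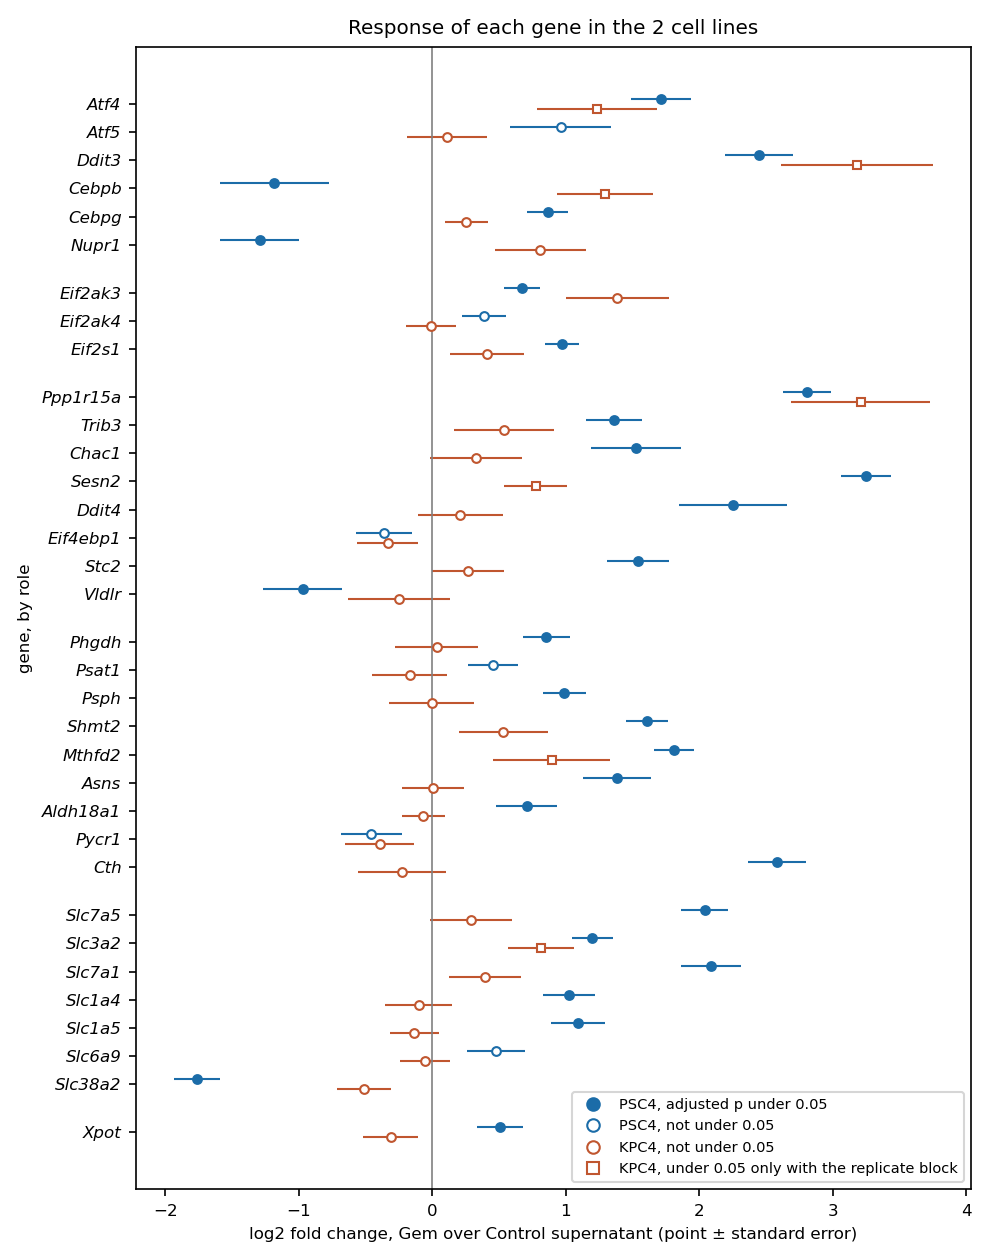
The horizontal axis is the log2 fold change of the Gem over the Control supernatant, with its standard error, for each gene by role; blue is PSC4 and orange KPC4, filled points have an edgeR adjusted p under 0.05, and squares pass it in KPC4 only with the replicate block. Ddit3 and Ppp1r15a lie well above 0 in both lines, and the lines lie far apart for Sesn2, Cth, Cebpb and Nupr1.

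In KPC4 cells given the medium of gemcitabine-educated PSC4 cells, Ddit3 and Ppp1r15a had log2 fold changes of 3.18 and 3.21, and most synthesis and transport genes had values near 0. No member passed in edgeR's quasi-likelihood test without a block, 0 of 34, where the background was also 0%; the smallest adjusted p of a member was 0.112. At an unadjusted p under 0.05 there were 9 members (background 17.0%), 8 of them higher (background 10.9%), namely Ppp1r15a, Ddit3, Eif2ak3, Cebpb, Atf4, Slc3a2, Nupr1 and Sesn2, and Slc38a2 lower. The labels give no pairing, and the numbers of the KPC4 replicates were taken to pair the libraries from the values alone. With the replicate number as a block, 7 members passed (background 8.85%), all higher (background 6.07%): Atf4, Cebpb, Ddit3, Mthfd2, Ppp1r15a, Sesn2 and Slc3a2. DESeq2 called 6 (background 6.22%), all higher (background 5.30%), which were Cebpb, Ddit3, Eif2ak3, Ppp1r15a, Sesn2 and Slc3a2. With DESeq2 and the block together it was 11 (background 16.5%), and in the edgeR fit over all 12 libraries 5 (background 4.47%). The authors' deposited table called 4, Cebpb, Ddit3, Eif2ak3 and Ppp1r15a, all higher, where it called 5.17% of its genes.

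Gem-PSC-SU replicate 1 was the lowest of its group for 25 of the 34 members, and replicate 2 the highest for 20. Control-PSC-SU replicate 1 was the lowest control for 23 and replicate 2 the highest for 19. These orders were counted over the members only. Across genes, the chi-square per degree of freedom was 240.7 between Gem-PSC-SU replicates 1 and 2. It was 96.9 between replicates 1 and 3 and 102.5 between replicates 2 and 3, so replicate 1 was not the single outlier by that measure. Without Gem-PSC-SU replicate 1, edgeR called 8 members (background 8.30%), all higher (background 6.31%), namely the 8 higher genes just listed for the unadjusted p. The log2 fold change was then 3.63 for Ddit3 (edgeR adjusted p = 0.00042), 3.64 for Ppp1r15a (0.000304), 1.59 for Atf4 (0.0358) and 1.71 for Eif2ak3 (0.0156). Leaving out any other KPC4 library gave 0 calls. Why the calls depended on Gem-PSC-SU replicate 1 was not tested. The epithelial list overlapped between the KPC4 groups, while the stellate list, nearly all of it Vim, summed to between 2417 and 2806 CPM with Control-PSC-SU and to between 1848 and 2208 CPM with Gem-PSC-SU; its part in the results was not tested.

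The factors and co-regulators all had positive values in KPC4, of unequal size. Ddit3 was at 6.34, 7.97 and 10.0 CPM in Control-PSC-SU replicates 1, 2 and 3 and at 19.6, 115 and 85.7 CPM in Gem-PSC-SU replicates 1, 2 and 3. Replicate 1 of the Gem group was the lowest by far but still above every control (log2 fold change 3.18 ± 0.57 SE; edgeR adjusted p = 0.112, with the block 0.0262). Atf4 was at 89.8, 194 and 159.5 CPM in the controls and at 151, 564 and 329 CPM with Gem-PSC-SU. The groups overlapped, because replicate 1 was low in both, and within each replicate number the Gem library was higher (log2 1.23 ± 0.45 SE; edgeR adjusted p = 0.228, with the block 0.00991). Cebpb was at 9.74, 14.7 and 16.7 CPM in the controls and at 18.0, 47.2 and 35.6 CPM with Gem-PSC-SU, without overlap (log2 1.29; edgeR adjusted p = 0.158, with the block 0.014). Nupr1 was at 33.95, 22.9 and 43.9 CPM and at 33.5, 71.8 and 71.1 CPM, where replicates 2 and 3 were high and replicate 1 lay among the controls (log2 0.81; edgeR adjusted p = 0.276, with the block 0.149). Atf5 and Cebpg had log2 fold changes of 0.11 and 0.25.

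The kinase gene Eif2ak3 was nearly level in the KPC4 controls, at 87.0, 86.6 and 89.2 CPM, and at 114, 388 and 184 CPM with Gem-PSC-SU. All Gem libraries were above the controls, with a wide spread of their own (log2 1.39 ± 0.39 SE; edgeR adjusted p = 0.157, with the block 0.0847). Ppp1r15a went from 17.3, 21.2 and 20.6 CPM to 55.2, 294 and 197 CPM. As for Ddit3, the lowest Gem library was replicate 1 and the groups were apart (log2 3.21 ± 0.52 SE; edgeR adjusted p = 0.112, with the block 0.0298). Sesn2 was at 15.9, 15.1 and 19.6 CPM in the controls and at 21.8, 30.2 and 34.6 CPM with Gem-PSC-SU, a separation without overlap but far smaller than in PSC4 (log2 0.77; edgeR adjusted p = 0.174, with the block 0.04). The remaining feedback and effector genes had log2 fold changes between -0.34 for Eif4ebp1 and 0.54 for Trib3.

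Among the KPC4 transporters, Slc3a2 was at 124, 127 and 142 CPM in the controls and at 147, 274 and 271 CPM with Gem-PSC-SU, without overlap (log2 0.81; edgeR adjusted p = 0.175, with the block 0.0423). Its light chain partner Slc7a5 had a log2 fold change of 0.29. Slc38a2 was at 595, 792 and 608 CPM in the controls and at 572, 428 and 398 CPM with Gem-PSC-SU, and it was the only member whose Gem libraries all lay below the controls (background 10.9%; log2 -0.51; edgeR adjusted p = 0.248, with the block 0.0918). The Gem libraries all lay above the controls for 7 members (background 11.8%). Of the synthesis genes, Mthfd2 was at 29.3, 75.7 and 47.0 CPM and then at 45.1, 136 and 101 CPM, overlapping between groups but higher within each replicate number (log2 0.89; edgeR adjusted p = 0.338, with the block 0.016). Asns had a log2 fold change of 0.00, Phgdh of 0.03 and Cth of -0.23. The median log2 fold change in KPC4 was 1.02 for the factors, 0.30 for feedback and effector genes, -0.01 for synthesis and -0.06 for transport, and 0.23 for all 34 members against -0.02 over the 13236 genes tested.

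**Figure D3:**
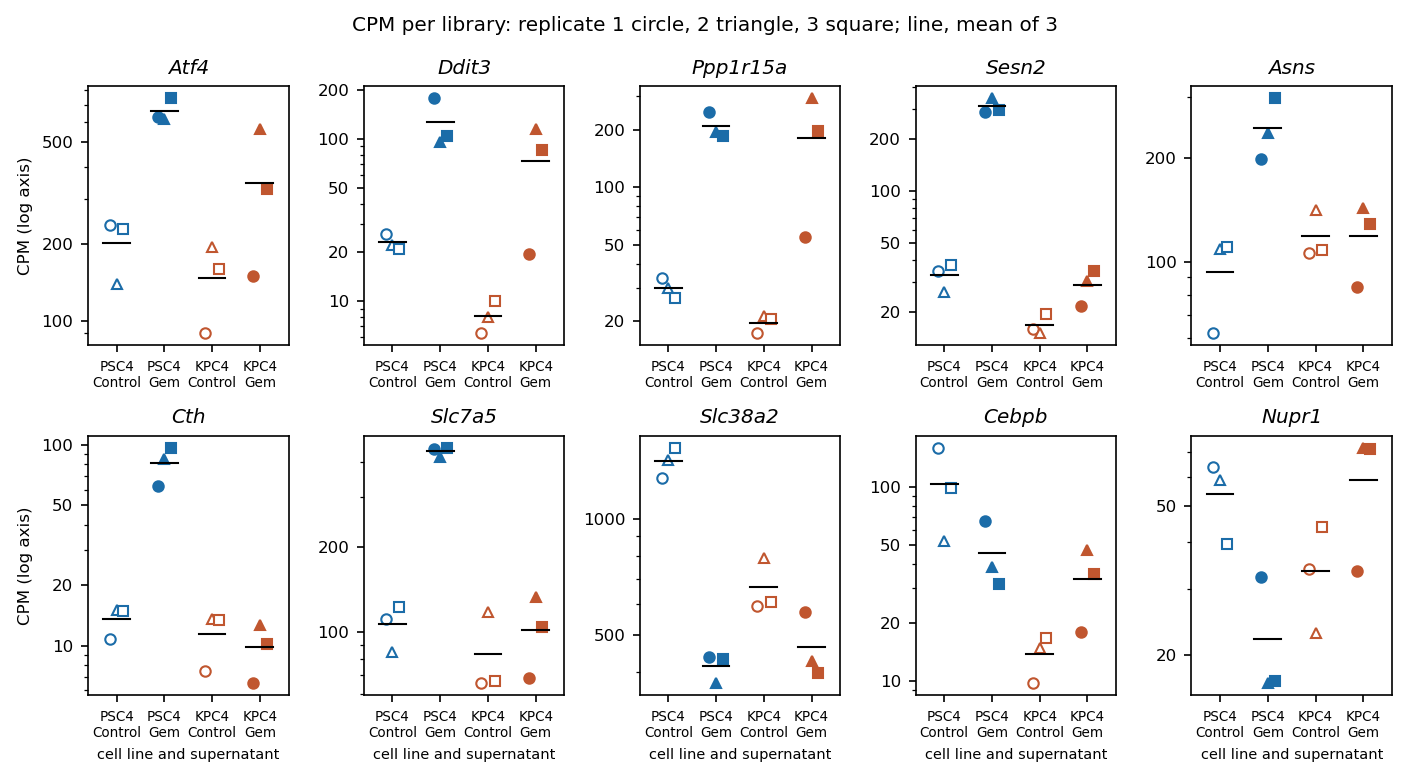
CPM of 10 members on a log axis in each of the 12 libraries, by line and supernatant; open symbols are control and filled symbols Gem supernatant, the shape gives the replicate, and the line is the mean of 3. Gem-SU libraries are above the controls in PSC4 for 7 of the 10 genes and below for Slc38a2 and Nupr1, and in KPC4 the filled circle of replicate 1 is the lowest Gem library for all but Slc38a2.

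The responses of the lines were compared directly by the interaction of line and supernatant over the 12 libraries, as the log2 fold change in PSC4 minus that in KPC4. Because PSC4 received tumour medium and KPC4 received stellate medium, the cell line and the kind of supernatant cannot be told apart in this difference. It passed for 10 of 34 members (edgeR quasi-likelihood, adjusted p under 0.05; background 9.85%), 7 above 0 (background 4.75%) and 3 below (background 5.10%). The median over members was 0.75, against -0.09 over the 13632 genes tested. With the replicate block 19 members passed (background 21.9%), with DESeq2 12 (background 15.7%), and with both together 22 (background 25.5%). The block in the fits of the difference covers both lines, although the PSC4 replicate numbers were not taken to pair the libraries. Without PSC4 Gem-SU replicate 2 it passed for 5 (background 4.41%). The share of members called was above the background share in each of the fits named here. The list was drawn up with earlier results of these data known, so that excess is not independent of these data.

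Amino acid supply made up most of the positive differences. The difference was 2.77 for Cth (edgeR adjusted p = 0.00168), 1.71 for Slc7a5 (adjusted p = 0.0139) and 1.65 for Slc7a1 (adjusted p = 0.0153). It was 1.33 for Asns (edgeR adjusted p = 0.035) and 1.17 for Slc1a5 (adjusted p = 0.0218). The mTORC1 inhibitor Sesn2 also responded more in PSC4, by 2.42 (edgeR adjusted p = 0.000561). For Ddit4 the difference was 1.98 (edgeR adjusted p = 0.0441), and it was not called with the replicate block (adjusted p = 0.053). Cebpb and Nupr1, lower in PSC4 and with positive values in KPC4, had differences of -2.52 (edgeR adjusted p = 0.0196) and -2.15 (adjusted p = 0.0159). Slc38a2, with negative values in both lines, had a difference of -1.30 (edgeR adjusted p = 0.00997).

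No difference was called for the core of the response. It was 0.44 ± 0.55 SE for Atf4 (edgeR adjusted p = 0.653), -0.77 ± 0.64 SE for Ddit3 (adjusted p = 0.478) and -0.44 ± 0.56 SE for Ppp1r15a (adjusted p = 0.658). With standard errors of that size, a moderate difference between lines was not detectable. The log2 fold change was above 0 in both lines for 19 members and below 0 in both for 4. It was above 0 in PSC4 and below in KPC4 for 9 members, 4 of synthesis, 3 of transport, Eif2ak4 and Xpot. These counts take the sign alone, and the same shares over all genes are not given here. Some of the KPC4 values were small beside their standard errors, such as 0.03 ± 0.31 SE for Phgdh and -0.01 ± 0.32 SE for Psph.

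The call of Sesn2, Cth, Slc38a2, Slc7a5 and Slc7a1 held in all 12 fits that each left out a library, and the other 5 calls did not. Nupr1 missed the threshold without PSC4 Gem-SU replicate 2 (adjusted p = 0.0506), and Cebpb without that library (0.0584) or KPC4 Control-PSC-SU replicate 1 (0.0508). Slc1a5 missed it without PSC4 Gem-SU replicate 2 (0.0602), PSC4 Gem-SU replicate 3 (0.0525) or KPC4 Gem-PSC-SU replicate 3 (0.057). Asns was lost without PSC4 Control-SU replicate 1, PSC4 Gem-SU replicates 2 and 3, KPC4 Control-PSC-SU replicates 2 and 3 or KPC4 Gem-PSC-SU replicates 1 and 3, at adjusted p between 0.058 and 0.0922. Ddit4 was lost without PSC4 Control-SU replicates 2 and 3, PSC4 Gem-SU replicates 1 and 2, KPC4 Control-PSC-SU replicates 1 and 3 or KPC4 Gem-PSC-SU replicates 1 and 2, at adjusted p between 0.0571 and 0.115.

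Genes linked to the same pathway, and genes of the IRE1 and ATF6 branches of the unfolded protein response, were counted from further lists. Of 20 aminoacyl-tRNA synthetases, the enzymes that load amino acids onto tRNA and are known ATF4 targets, 15 rose (background 24.3%) and 1 fell (background 22.0%) in PSC4, with a median log2 fold change of 0.71. Those with the smallest p were Yars1 (1.48; edgeR adjusted p = 0.000283), Cars1 (1.16; 0.00102) and Hars1 (0.82; 0.00124). Of 16 tested of 17 other ATF4-linked targets, 11 rose and 2 fell, against the same background, with a median of 0.82. They were led by the stress factor gene Atf3, which went from 4.96, 3.38 and 3.02 CPM in the controls to 1192, 967 and 903 CPM with Gem-SU. That was a log2 rise of 8.07 (edgeR adjusted p = 1.45e-05), while the stress cytokine gene Gdf15 rose by 5.26 (edgeR adjusted p = 1.45e-05) and the death receptor gene Tnfrsf10b by 2.11 (edgeR adjusted p = 7.97e-05). Fgf21, the remaining gene of that list, was too low in PSC4 to be tested.

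The rest of the stress machinery had smaller medians in PSC4. Of 14 genes of the eIF2 machinery 4 rose (background 24.3%) and 1 fell (background 22.0%), with a median of 0.34. The share that rose was near the background. The called genes included the exchange factor subunits Eif2b3 (1.05), Eif2b1 (0.65) and Eif2b4 (-0.76). Of 16 genes of the IRE1 and ATF6 branches of the unfolded protein response 5 rose and 1 fell (median 0.14), where the background was 24.3% higher and 22.0% lower. Ern1, which encodes IRE1, rose by 1.93 (edgeR adjusted p = 0.00013) and Atf6 by 1.07 (edgeR adjusted p = 0.0039). Xbp1, whose message IRE1 splices, went from 82.8, 81.6 and 98.9 CPM to 32.0, 29.3 and 35.8 CPM, a log2 fold change of -1.44 (edgeR adjusted p = 0.000232).

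In KPC4 none of these 4 lists had a gene past the edgeR threshold without the block, where the background was 0%. With the block, where the background was 8.85% called and 6.07% higher, 5 other ATF4-linked targets were higher and 2 lower of 16, 2 higher and 1 lower of 16 IRE1 and ATF6 genes, 1 synthetase was higher and 0 eIF2 machinery genes were called. Atf3 was at 5.16, 15.2 and 9.04 CPM in the KPC4 controls and at 198, 1591 and 1161 CPM with Gem-PSC-SU, and Gem-PSC-SU replicate 1 was again the lowest of its group (log2 6.65; edgeR adjusted p = 0.103, with the block 0.00212). The median log2 fold changes in KPC4 were 0.13 for the synthetases, 0.31 for the other targets, 0.05 for the eIF2 machinery and 0.25 for the IRE1 and ATF6 genes.

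**Figure D4:**
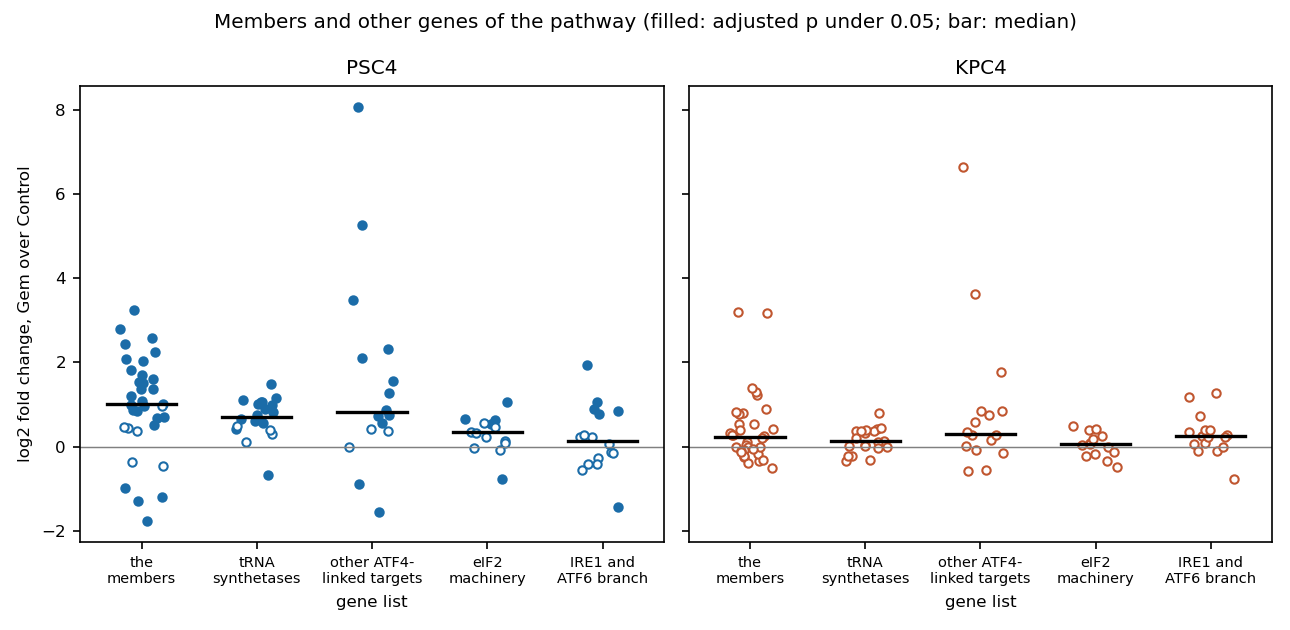
Log2 fold change of each tested gene in the 34 members and in 4 further lists, by line; filled points have an edgeR adjusted p under 0.05 and bars are medians. In PSC4 the medians of the members, the synthetases and the other targets lie between 0.71 and 1.00 and those of the other lists at 0.34 and 0.14, and in KPC4 all 5 medians lie between 0.05 and 0.31.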

How the data were processed

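RNA from 12 cultures was sequenced on an Illumina instrument, per the labels. Per the submitters' processing notes, the tools were FastQC, Trim Galore 0.6.10, cutadapt 5.2, Salmon, R 4.5.1 and DESeq2 and the build was GRCm39; their order and the annotation are not given in the sources used here. The authors deposited a count per gene and library for each line as whole numbers, treated here as estimated counts because Salmon is named. The authors also deposited, for each line, log2 fold changes with p-values, raw and adjusted, for each gene symbol. Every column of per-sample values was used (0 unused). GENCODE M21 gave symbols for 99.7% of the identifiers in PSC4 (16329 of 16386) and also in KPC4 (15265 of 15309). Promoter windows are RefSeq's on GRCm38.p6, a different build from the authors', and no coordinate was converted. Low-count genes may have been removed from the KPC4 table before deposit, by a rule not given in the sources used here.

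Each line was tested with edgeR 4.0.16 in R 4.3.3: filterByExpr, TMM scaling and the quasi-likelihood test with robust estimation, with p-values adjusted by Benjamini-Hochberg over all genes tested at 0.05. To compare the lines, an interaction of line and medium was tested in one fit to all 12 libraries. All 34 members passed the low-count filter in each line. Standard errors follow from the fold change and the F statistic. Alternatives were DESeq2 1.42.0, its size factors, no filter, at least 10 counts in every library, robust estimation off, the replicate block, a fit over both lines, and leaving out each library.

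The members and the gene lists were chosen with earlier results of these data known. Values in every library are given for members at least 2-fold different and called in PSC4, for those with an unadjusted p under 0.05 in KPC4 and for Atf4. Mthfd2 in KPC4 and Vldlr in PSC4 were added after their values were seen, as were the per-library values of Atf3 and Xbp1; in the further lists the 3 genes of smallest p are named.

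Groups share replicate numbers. In KPC4, libraries with the same number deviated together from the group means (correlations 0.351, 0.436 and 0.211, all above 0.1), so these numbers were taken to pair the libraries, from the values alone. Replicates differed by a chi-square of at least 30.4 per degree of freedom, so the spread between them, more than counting error, sets the precision. Overlapping and antisense genes, and those with near-identical copies, are uncertain, since the counting rule is not given in the sources used here.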

Additional observations from a re-analysis of the deposited data

Results flagged for a closer look

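For 10 members the response differed between PSC4 and KPC4 by the test of the difference itself, the interaction in edgeR's quasi-likelihood fit over 12 libraries. The log2 fold change in PSC4 minus that in KPC4 was 2.77 for Cth, 2.42 for Sesn2, 1.98 for Ddit4, 1.71 for Slc7a5, 1.65 for Slc7a1, 1.33 for Asns and 1.17 for Slc1a5. It was -2.52 for Cebpb, -2.15 for Nupr1 and -1.30 for Slc38a2. With the replicate block in both lines the difference for Ddit4 was not called (edgeR adjusted p = 0.053). The cell line and the kind of supernatant cannot be told apart in these differences.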

How the results depend on the processing

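In PSC4, where 28 members passed (background 46.3%), the count was 25 to 33 under the alternatives in tool, scaling, filter and design, and 24 to 31 when each library was left out. For these other PSC4 fits the share of all genes called is not given here, so a higher or lower count is not set against it. In these fits of PSC4, 24 of the 28 calls were kept whichever library was left out, and Cebpb, Vldlr, Aldh18a1 and Xpot were lost in some. In KPC4, where 0 passed (background 0%), the count was 7 with the replicate block (background 8.85%), 6 with DESeq2 (background 6.22%) and 11 with DESeq2 and the block (background 16.5%). It was 5 in the fit over all 12 libraries (background 4.47%). When each library was left out it was 0 to 8, with 8 only without Gem-PSC-SU replicate 1 (background 8.30%). For the difference between lines, where 10 passed (background 9.85%), the count was 19 with the replicate block (background 21.9%) and 22 with DESeq2 and the block (background 25.5%). When each library was left out it was 5 to 11, with 5 without PSC4 Gem-SU replicate 2 (background 4.41%). In the fit over all 12 libraries Eif2ak3 (adjusted p = 0.119), Vldlr (0.0505) and Xpot (0.0828) were not called in PSC4. The 28 members called in PSC4, the 9 with an unadjusted p under 0.05 in KPC4 and the 10 with a called difference were refitted. None of them changed direction in 392, 126 and 190 refits. These members were picked by their p in the same libraries, so a kept direction was likely beforehand. The threshold was lost in 21 of the PSC4 refits and 22 of those of the difference. Only members already called were followed in these refits, so no call could be gained. In KPC4 no member passed in the main fit, so no call could be lost, and a call was gained in 34 refits. The causes were not tested.

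The PSC4 replicate numbers were not taken to pair the libraries, since same-numbered libraries correlated at 0.428, -0.0548 and 0.102, and 2 of 6 libraries correlated best with their own number (6 of 6 in KPC4). With the replicate block 31 PSC4 members passed, and Ddit4 had an edgeR adjusted p of 0.0821 there. The share of all PSC4 genes called with the block is not given here. With 3 libraries a group, differences of the size of the standard errors given cannot be resolved.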
